A study of Homo sapiens with 6 samples.

Results

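The integrated stress response was followed through 10 genes of the ATF4 axis in Cal33, a cell line from a human squamous carcinoma of the mouth. The genes are ATF4, ATF5, ATF3, DDIT3, TRIB3, ASNS, CEBPB, NUPR1, PPP1R15A and SESN2. They were taken by symbol from a deposited table of 14136 gene entries, in which each of the 10 listed symbols stood on 1 entry with a value in every library. Cells carried either the empty lentiviral vector (pSin-EF2, called Vector, 3 libraries) or the same vector with FLAG-tagged CES2 (called CES2, 3 libraries). The product of CES2, carboxylesterase 2, is an enzyme of the endoplasmic reticulum that splits esters. Cells of both groups were infected with lentivirus packaged in 293FT cells (a line derived from human embryonic kidney) and were kept as stable pools or clones (the labels do not say which) under 0.5 ug/ml puromycin in medium with 10% serum. Nothing in the labels says that libraries of a group came from separate infections or cultures, so p-values reflect nothing beyond the spread of these samples, and that spread may be technical.

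In this response, kinases that sense amino acid shortage, misfolded protein in the endoplasmic reticulum, double-stranded RNA or haem shortage phosphorylate the translation factor eIF2alpha. Protein synthesis then falls in general, while short upstream reading frames let ribosomes translate ATF4, a leucine zipper transcription factor. ATF4 pairs with factors of the C/EBP family and switches on genes of amino acid supply, further transcription factors such as CHOP (the product of DDIT3), and feedback proteins. Since ATF4 and several of its partners are controlled at translation, RNA abundance describes only part of their activity, and protein was not measured here.

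DNA sites known for ATF and C/EBP factors or for endoplasmic reticulum stress were searched for in RefSeq promoters of GRCh38.p14. The stretch searched ran from 250 bases before to 50 after each start site. The sites are shown as background, and whether any factor acts through them in these cells was not tested. Of the 10 genes, 9 were matched to 18 promoters. The letters of the C/EBP-ATF response element, TGATGNAAN on either strand, stood in 3.61% of all 35116 promoters. Among the 18 promoters of the members they stood in 2, from ASNS and ATF3. The cAMP response element, TGACGTCA, stood in 1.85% of all promoters and in 1 of the 18, from PPP1R15A. The ER stress element stood in 0.0769% of all promoters and in 0 of the 18. None of the sites found overlapped another. They are written 5′ to 3′ on the strand of the gene, as 30 bases with the matched letters in capitals.
ASNS, chr7:97872457-97872486, minus strand, 68 to 60 bases before the RefSeq start: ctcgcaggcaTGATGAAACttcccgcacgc
ATF3, chr1:212565206-212565235, plus strand, 191 to 183 bases before the RefSeq start: aaggtcaggaTGATGGAAGgctgtcatatt
PPP1R15A, chr19:48872352-48872381, plus strand, 58 to 51 bases before the RefSeq start: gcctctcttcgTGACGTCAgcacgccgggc
The transcript listed for ASNS in the deposited table starts further upstream, so the ASNS site lies in its untranslated leader by GENCODE release 29. The other sites lie outside the listed transcripts. A match of letters is a description of the sequence and not evidence of binding.

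Abundance was given as TPM, transcript abundance that corrects for transcript length and scales each library to the same total. Sequencing depth is lost in TPM and thus unknown, and no counting error can be given. Of all entries, 12210 genes were tested, those that reached 1 TPM in 3 or more libraries, and all 10 members were among them. The CES2 transcript was at 45.6, 41.9 and 44.9 TPM in the Vector libraries and 2664, 1929 and 2294 TPM in the CES2 libraries (libraries 1 to 3), which matches the labels of all 6 libraries. Of 12 keratinocyte markers all were in the table, and their summed level was 5113 to 6330 TPM in Vector and 4928 to 6472 TPM in CES2 cells, although KRT14 was at 1.14 to 2.97 TPM. Of 7 fibroblast markers only COL1A1 was listed, at 3.90 to 10.5 TPM, and of 7 leukocyte markers 4 were listed, with sums of 6.04 to 12.4 TPM that came mostly from CD68. Of 4 endothelial markers 3 were listed, with sums of 10.2 to 25.8 TPM in Vector and 11.2 to 20.5 TPM in CES2 that came mostly from CDH5. Of 6 markers chosen for the packaging line 2 were listed, with sums of at most 1.25 TPM. COL1A2, COL3A1, DCN, LUM, PTPRC, CD3E and KDR were among the markers without an entry in the table.

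All 10 genes were expressed in every library. By group mean they ran from ATF4, among the most abundant transcripts of these cells, to ATF3. The lowest single value was 5.45 TPM, for ATF5 in Vector 1. For none of the 10 did the test show a difference between the groups beyond the spread between libraries. CEBPB, NUPR1 and ATF3 had the largest differences, each with a higher mean in CES2, and ATF4, ASNS, TRIB3 and PPP1R15A had slightly lower values in CES2. For ATF5 the measures differed in sign: its mean TPM was lower in CES2 (a ratio of 0.955) and its log2 fold change was above 0. By limma, 0 of the 10 members passed an adjusted p of 0.05 (Benjamini-Hochberg over all genes), where 0.00819% of all genes, CES2 alone, passed. The adjusted p was 0.9998 for each of the 10. At an unadjusted p under 0.05, 0 of the 10 passed, where 1.09% of all genes did, and the smallest was 0.0724 for CEBPB. Vector and CES2 libraries overlapped in all 10 members, and did not overlap in 3.70% of all genes. The median log2 fold change (CES2 minus Vector, on log2(TPM + 1), as for all fold changes here) was 0.11 for the members and -0.06 for all tested genes. Of the 10, 6 were above 0, against 36.3% of all genes, and 3 differed by more than 0.5 in size, against 3.51% of all genes. These members were chosen with earlier results of these data known, so such shares describe them and test nothing.

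**Figure D1:**
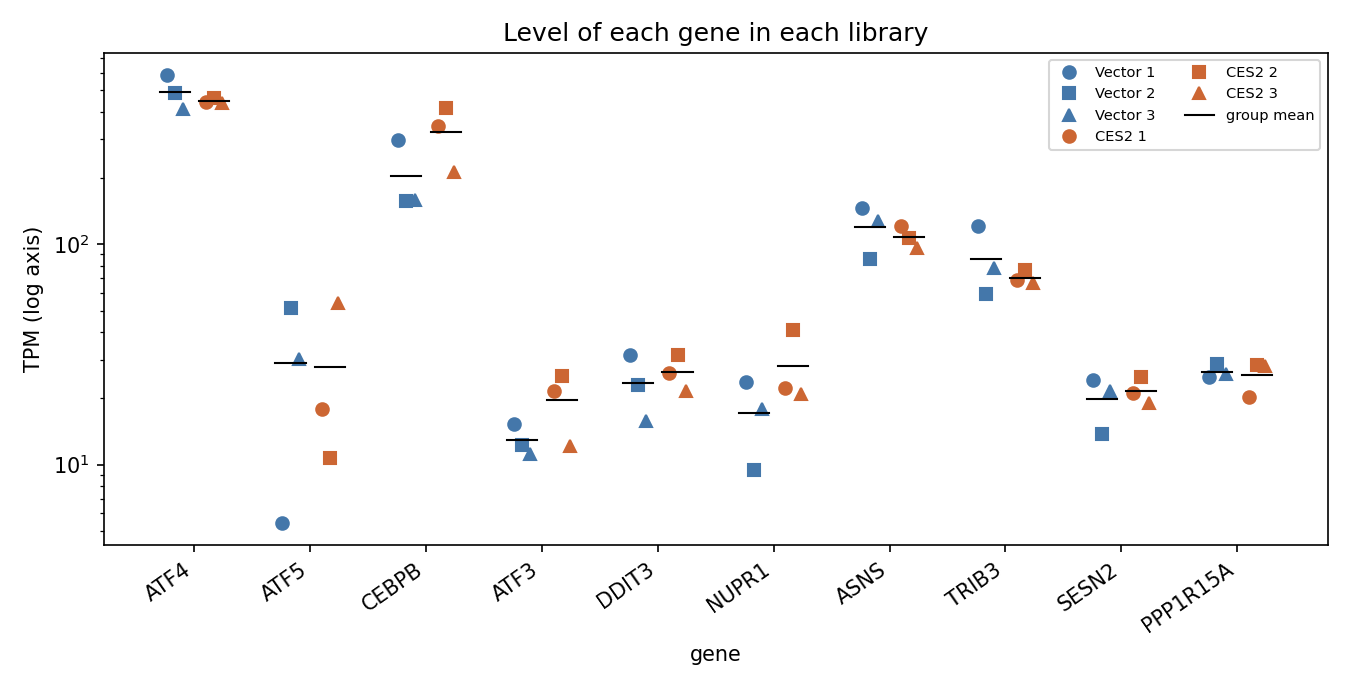
TPM (log axis) of the 10 genes in each of the 6 libraries; blue marks are Vector and orange marks are CES2, the marker shape gives the library number and black lines are group means. ATF4 lies highest at 411 to 585 TPM, ATF5 is spread from 5.45 to 51.3 TPM in Vector and from 10.8 to 54.3 TPM in CES2, and the groups overlap in every gene.

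ATF4, the central activator, was at 585, 485 and 411 TPM in Vector libraries 1, 2 and 3 and at 444, 462 and 440 TPM in CES2 libraries 1, 2 and 3. The 3 CES2 values lay inside the range of the Vector values and close to each other. Means were 494 ± 87.6 TPM for Vector and 449 ± 11.7 TPM for CES2 (SD, n = 3 each), and ATF4 was more abundant than 97.7% of tested genes. By limma the log2 fold change came to -0.12 ± 0.18 (SE), with a 95% interval of -0.54 to 0.30. A two-sided permutation test, exact over the 6 values, gave p = 0.6, where the smallest that 3 against 3 allows is 0.1. The direction rested on Vector 1, since without it the log2 fold change was 0.01. ATF4 (ENSG00000128272) lies on the plus strand of chromosome 22, from 39519695 to 39522683 in GRCh38, and its listed transcript has 4 exons and 1910 bases.

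ATF5, a relative of ATF4 that is likewise controlled by upstream reading frames and is known for the mitochondrial stress response, was the most variable member. It was at 5.45, 51.3 and 30.2 TPM under Vector, against 17.9, 10.8 and 54.3 TPM under CES2. The highest and the lowest library thus differed 9.96-fold, with high and low values in both groups. The spread of ATF5 within groups (residual SD of 1.38 on the log2 scale) was larger than that of 99.4% of tested genes. Group means were nearly equal, at 28.96 ± 22.9 TPM and 27.7 ± 23.3 TPM (SD, n = 3 each). The log2 fold change of 0.08 had a 95% interval of -1.76 to 1.91, so even a severalfold difference in either direction was not detectable. Without Vector 1 it was -0.81 and without Vector 2 it was 0.70.

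ATF5 (ENSG00000169136, chromosome 19 from 49928702 to 49933298, plus strand, GRCh38, 4 exons in the listed transcript of 1637 bases) overlaps NUP62, a nuclear pore gene on the opposite strand. In GENCODE release 29, 463 bases of the exons of the listed ATF5 transcript lie within the span of NUP62, and also of IL4I1, which was at 0.286 TPM or less in every library. All 1637 bases lie within the span of AC011452.1, another protein-coding gene annotated on that opposite strand, for which no value was used here. NUP62 was at 47.9, 90.8 and 97.1 TPM across Vector and 74.1, 49.6 and 107 TPM across CES2. The libraries fell in the same order for both genes apart from Vector 2 and Vector 3, which changed places: CES2 3 was highest and CES2 2 and Vector 1 were lowest. That order was not particular to NUP62. GCN1 and EIF2B4, genes of the wider pathway that do not overlap ATF5, had exactly the ATF5 order. They are named after their values were seen. Libraries were strand-specific per the labels' protocols, but whether counting used the strand is not given in the sources used here, so reads of the overlapping stretch may not have been told apart. The part of this overlap in the ATF5 values was not tested.

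**Figure D2:**
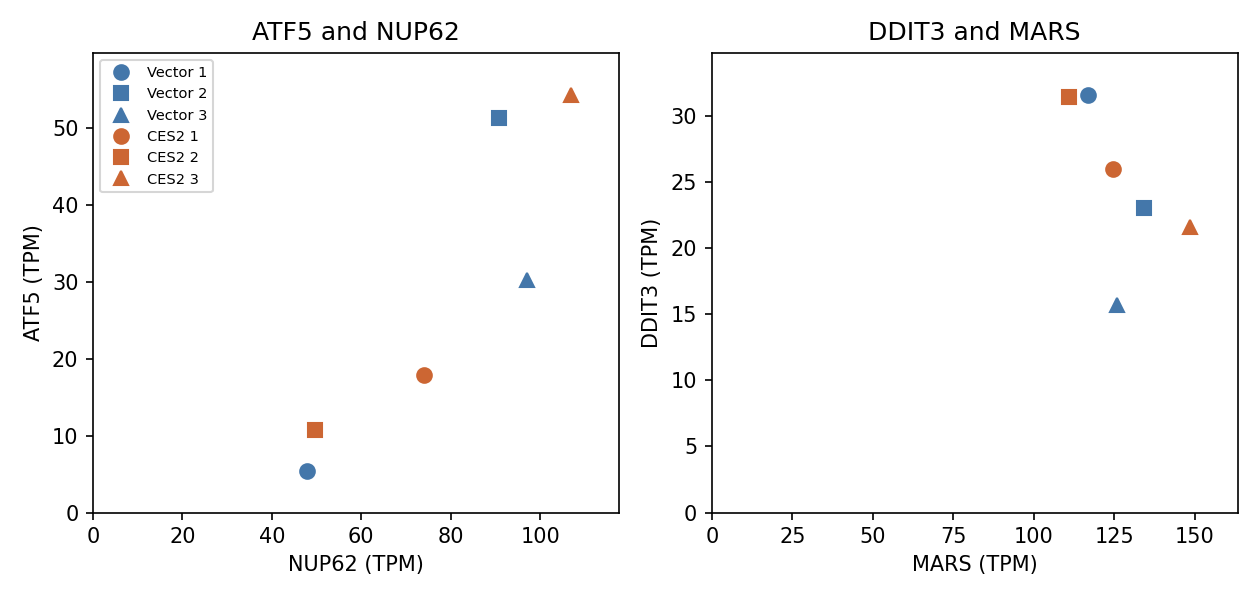
TPM of ATF5 against NUP62 (left) and of DDIT3 against MARS (right), the genes whose spans overlap on opposite strands; each point is 1 library, blue for Vector and orange for CES2. ATF5 is lowest where NUP62 is lowest (Vector 1 and CES2 2), while DDIT3 is highest in the 2 libraries where MARS is lowest.

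CEBPB encodes C/EBPbeta, a partner of ATF4 that also serves in inflammation. It was at 298, 157 and 159 TPM with the empty vector and 344, 417 and 212 TPM with CES2. CES2 1 and CES2 2 lay above every Vector library, while CES2 3 lay below Vector 1. Means were 205 ± 80.8 TPM and 324 ± 104 TPM (SD, n = 3 each), a ratio of 1.58. This gave a log2 fold change of 0.67 ± 0.33 (SE), with a 95% interval of -0.08 to 1.42 (limma, adjusted p = 0.9998). The exact permutation test gave p = 0.2. CEBPB is a gene without introns on the plus strand of chromosome 20, from 50190734 to 50192689, and 765 bases of it lie within the span of the antisense gene CEBPB-AS1.

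ATF3, a stress-induced leucine zipper factor of the same family, behaved most like CEBPB among the members. It was at 15.3, 12.3 and 11.2 TPM in the Vector libraries and 21.6, 25.2 and 12.1 TPM in the CES2 libraries, so that CES2 1 and CES2 2 again lay above every Vector library and CES2 3 did not. Means were 12.95 ± 2.14 TPM and 19.6 ± 6.77 TPM (SD, n = 3 each). On the log2 scale the difference came to 0.51 ± 0.30 (SE), with a 95% interval of -0.17 to 1.20. Without CES2 2 it was 0.31, and without CES2 3 it was 0.81. ATF3 spans 212565334 to 212619535 on the plus strand of chromosome 1.

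DDIT3 encodes CHOP, a C/EBP relative that ATF4 induces and that promotes cell death under lasting stress. It was at 31.6, 23.0 and 15.7 TPM under Vector, against 26.0, 31.4 and 21.6 TPM under CES2. Vector 1 and CES2 2 were highest and nearly equal, and Vector 3 was lowest. Its fold change of 0.20 (log2) had a 95% interval of -0.45 to 0.85 and became -0.05 without Vector 3. DDIT3 lies on the minus strand of chromosome 12, from 57516588 to 57520492, tail to tail with MARS, the methionyl tRNA synthetase gene. In the annotation 749 of the 872 bases of the listed DDIT3 transcript lie within the span of MARS, which was at 117, 134 and 126 TPM across Vector and 125, 111 and 148 TPM across CES2. MARS was lowest in CES2 2 and Vector 1, the libraries in which DDIT3 was highest. Here too it is not given whether counting used the strand, and the part of this overlap in the DDIT3 values was not tested.

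NUPR1, a small chromatin-associated stress protein, had the largest log2 fold change of the members. It was at 23.8, 9.50 and 17.9 TPM with the empty vector and 22.2, 41.0 and 20.9 TPM with CES2. CES2 2 was highest and Vector 2 lowest, while the other 4 libraries lay between 17.9 and 23.8 TPM. That fold change came to 0.70 ± 0.38 (SE), with a 95% interval of -0.16 to 1.57. It was 0.40 without CES2 2 and 0.36 without Vector 2. NUPR1 lies on the minus strand of chromosome 16 (28532708 to 28539174), and the length of its listed transcript is 5491 bases.

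**Figure D3:**
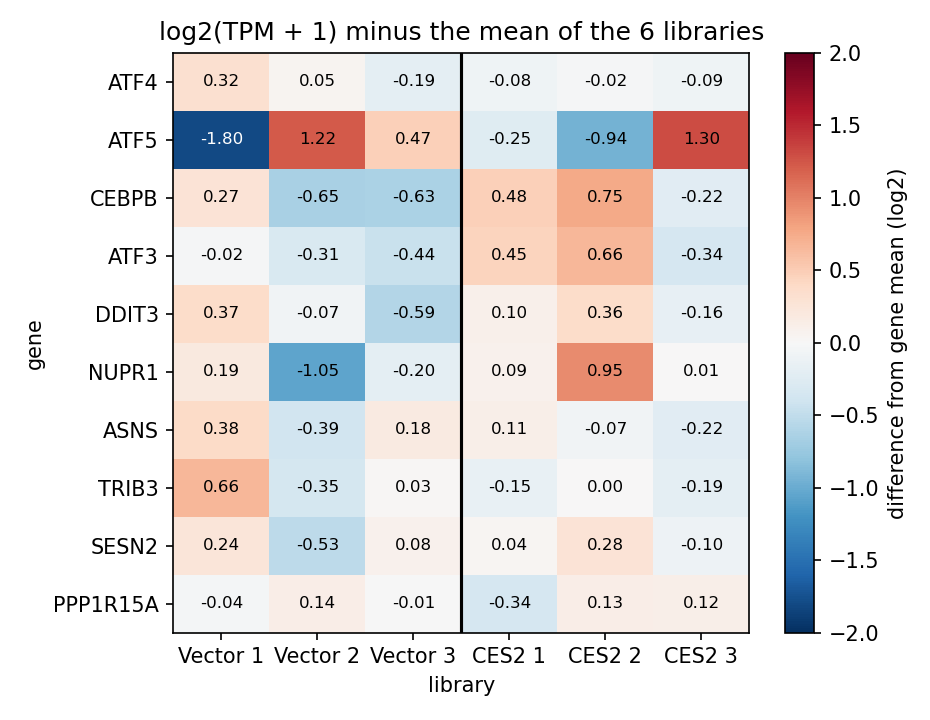
log2(TPM + 1) of each gene in each library minus the mean of the gene over the 6 libraries; red is above and blue below that mean, and the black line divides Vector from CES2. CEBPB, ATF3 and NUPR1 are highest in CES2 2 (0.75, 0.66 and 0.95), and ATF5 runs against them, at -1.80 in Vector 1 and -0.94 in CES2 2.

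The enzyme of the axis is ASNS, asparagine synthetase, a classical target of the amino acid arm. It was at 147, 85.7 and 127 TPM in the Vector libraries and 121, 107 and 96.4 TPM in the CES2 libraries. Vector 1 was highest, Vector 2 lowest, and all CES2 libraries lay between them. For ASNS the log2 fold change of -0.12 had a 95% interval of -0.65 to 0.41, and it was 0.04 without Vector 1. ASNS lies on the minus strand of chromosome 7, from 97852118 to 97872542, with 14 exons in the listed transcript, all of them within the span of AC079781.5, a processed transcript annotated on the same strand, for which no value was used here.

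TRIB3, a pseudokinase that binds ATF4 and restrains it, was at 121, 59.7 and 77.8 TPM under Vector, against 68.7, 76.3 and 66.9 TPM under CES2. As with ATF4 and ASNS, the CES2 values were close together and the Vector values spread around them, with Vector 1 highest. Means were 86.1 ± 31.4 TPM and 70.6 ± 4.96 TPM (SD, n = 3 each). Their difference on the log2 scale was -0.22, with a 95% interval of -0.82 to 0.37, and it was 0.05 without Vector 1. The CES2 SD was the smaller one in 5 of the 10 members, and in 58.9% of all tested genes.

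SESN2, sestrin 2, a leucine sensor that restrains the growth kinase mTORC1, was at 24.2, 13.8 and 21.6 TPM across Vector and 21.1, 24.9 and 19.0 TPM across CES2. Only Vector 2 stood apart, as the lowest. SESN2 had a log2 fold change of 0.15 (95% interval -0.44 to 0.74), which was -0.08 without Vector 2. PPP1R15A encodes GADD34, the phosphatase subunit that removes the phosphate from eIF2alpha and so closes the feedback loop. It was at 25.1, 28.5 and 25.7 TPM with the empty vector and 20.2, 28.3 and 28.2 TPM with CES2, and CES2 1 was the lowest. PPP1R15A had a log2 fold change of -0.06 (95% interval -0.55 to 0.42), and its sign turned positive after quantile normalization (0.01). SESN2 lies on chromosome 1 (28259527 to 28282491), TRIB3 on chromosome 20 (362835 to 391386) and PPP1R15A on chromosome 19 (48872392 to 48876057), all on the plus strand.

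**Figure D4:**
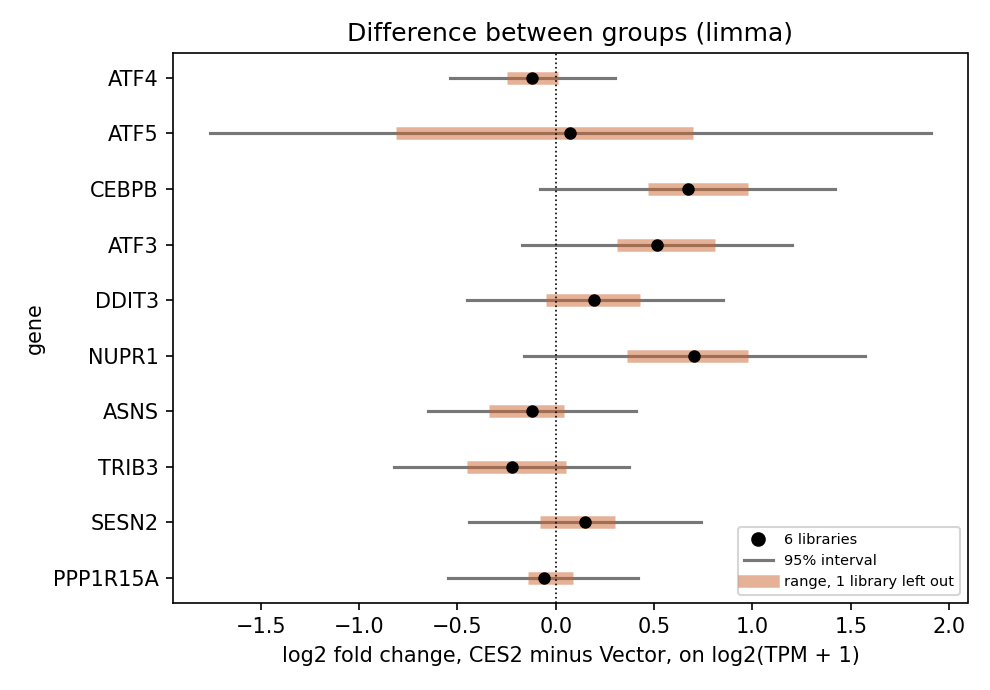
log2 fold change of each gene, CES2 minus Vector, with its 95% interval from limma (grey line) and the range of values when 1 library is left out (orange bar). All intervals include 0; CEBPB, NUPR1 and ATF3 stay above 0 with each library left out, while the bars of the other 7 genes cross 0.

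The order of the levels was the same for the 4 most abundant members in both groups: ATF4, then CEBPB, ASNS and TRIB3. In Vector, 2 of the 9 neighbouring pairs in that order differed by more than the sum of their SDs, ATF4 from CEBPB and TRIB3 from ATF5. In CES2, 4 of 9 did, which set ATF4, CEBPB, ASNS and TRIB3 apart from each other and from the rest. The other 6 genes, at means of 12.95 to 28.96 TPM in Vector and 19.6 to 28.0 TPM in CES2, differed from their neighbours among these 6 by no more than the sum of the SDs in either group. TPM is per length, but which transcript length was used for each gene is not given in the sources used here. That matters for levels compared between genes whose listed transcripts run from 680 bases (ATF3) to 5491 bases (NUPR1).

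The libraries did not sort by group. Vector 1 was among the highest 2 libraries for 6 of the 10 members and CES2 2 for 6, against 3 for Vector 2, 2 each for Vector 3 and CES2 1, and 1 for CES2 3. Vector 2 was the lowest library for 5 members and Vector 3 for 3. Averaged over the 10 members, log2 deviations from the gene means were 0.06, -0.19 and -0.13 for Vector 1 to 3 and 0.04, 0.21 and 0.01 for CES2 1 to 3. With ATF5 left out they became 0.26, -0.35 and -0.20 for Vector and 0.08, 0.34 and -0.13 for CES2, so Vector 1 lay above CES2 1 and CES2 3. Of the members, CES2 2 lay above every Vector library in 4, CES2 1 in 2 and CES2 3 in 1. No share over all tested genes is given beside the counts in this paragraph. They describe the members and do not show that these differ from other genes.

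Profiles of the members were compared with each other as a description. The measure was the root mean square difference between profiles of log2(TPM + 1) over the 6 libraries, each centred on its mean. TRIB3 and ASNS were each other's nearest member, at 0.167, and SESN2 was nearest to ASNS, at 0.178. CEBPB and ATF3 were each other's nearest, at 0.207, and NUPR1 was nearest to CEBPB, at 0.315. DDIT3 and PPP1R15A were nearest to ATF4, at 0.245 and 0.226. Every gene has a nearest member, and a gene that varies little lies near any other such gene, so these distances alone do not show likeness. For all 9 others the farthest member was ATF5, at 1.08 to 1.58.

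Outside the axis, the genes nearest to ATF4 by the same measure, among 10525 with a mean of at least 5 TPM, were EIF3L (0.044), CRYZ (0.048), ZUP1 (0.061), ATP6AP1 (0.063) and EIPR1 (0.066). Nearest to the mean profile of the 10 members were CDKN2C (0.037), IL20RA (0.043), SLC15A4 (0.061) and F12 (0.062). That mean profile ran only from -0.19 to 0.21 over the libraries and changed when ATF5 was left out. Some of 10525 distances will be small in any case, so these genes are not shown to vary with the axis. None of these genes passed by limma.

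Set against ATF4 in the same library, a measure chosen after the values were seen, 2 of the other 9 members had groups that did not overlap, against 2.01% of all tested genes. ATF3 was at 2.62, 2.54 and 2.72% of the ATF4 TPM in Vector and at 4.85, 5.45 and 2.75% in CES2. CES2 3 thus lay only just above the highest Vector library. NUPR1 was at 4.07, 1.96 and 4.36% of ATF4 in Vector and at 4.995, 8.88 and 4.75% in CES2. The exact permutation p was 0.1 for both, the smallest that 3 against 3 allows, and 0.2 to 1.0 for the other 7 members. Because the measure was picked from these same values, its shares and p-values describe the members and test nothing. In TPM itself the groups overlapped for ATF3 and for NUPR1, with an exact permutation p of 0.3 for each. CEBPB was at 50.9, 32.4 and 38.6% of ATF4 in Vector and at 77.4, 90.2 and 48.2% in CES2, and CES2 3 lay below Vector 1.

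The wider pathway was read through 10 lists of 129 genes in all, of which 123 were tested. By limma 0 of them passed, and 2 had an unadjusted p under 0.05, where 1.09% of all genes did. Of the 123, 59 were above 0 and 64 below, where 36.3% of all genes were above 0, and the median log2 fold change was -0.04 against -0.06 for all genes. For genes of these lists, a value with no unit is the log2 fold change. Upstream, the 4 eIF2alpha kinases were all slightly below 0 (median -0.14). PKR (EIF2AK2), the sensor of double-stranded RNA, averaged 58.0 ± 8.66 TPM under Vector and 48.8 ± 11.9 TPM under CES2 (SD, n = 3 each), which is -0.26 on the log2 scale. The corresponding values were -0.13 for the haem-regulated kinase HRI (EIF2AK1) and -0.16 for GCN2 (EIF2AK4), the sensor of uncharged tRNA.

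Of 14 genes for eIF2, its exchange factor eIF2B and the phosphatase, 10 were below 0 (median -0.06). EIF2S1, which encodes eIF2alpha itself and is named after its values were seen, was at -0.11 and the phosphatase catalytic subunit PPP1CC at -0.28. EIF2A, at -0.32, was on the list but encodes a separate initiation factor and no subunit of eIF2. PPP1R15B, the constitutive counterpart of GADD34, was at 37.5, 42.7 and 42.4 TPM in the Vector libraries and 34.2, 27.8 and 37.0 TPM in the CES2 libraries. The groups did not overlap, although the log2 fold change of -0.31 had a 95% interval of -0.75 to 0.14. Among 9 upstream sensors and factors of ATF4 stability (median -0.04), FAM129A was at 0.56, IMPACT, an inhibitor of GCN2 activation, at -0.21 and BTRC, of the ligase that degrades ATF4, at -0.17.

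The 20 leucine zipper partners and relatives had 9 above and 11 below 0 (median -0.06) and held the largest differences of all 10 lists. CEBPD, which encodes C/EBPdelta, was at 136, 44.1 and 53.8 TPM under Vector, against 137, 238 and 89.1 TPM under CES2, a log2 fold change of 1.05 with a 95% interval of -0.03 to 2.12. Like CEBPB, it was high in Vector 1 as well as in CES2 1 and CES2 2. MAFF was at 9.71, 17.9 and 6.41 TPM across Vector and 37.5, 17.7 and 15.9 TPM across CES2 (log2 fold change 1.01, unadjusted p = 0.0436, adjusted p = 0.9998 by limma). CREB1 was at -0.59. A mixed list held relatives of TRIB3 and the sestrins beside other genes such as GADD45G and DDIT4 (6 of 11 above 0, median 0.02). In it GADD45G was at 0.33, with groups that did not overlap, TRIB1 at 0.25 and SESN3 at -0.40.

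Target genes of ATF4 in amino acid supply centred near 0. Medians were -0.05 for 10 transporters, -0.04 for 11 enzymes of amino acid synthesis and -0.07 for 13 genes of tRNA charging and export. SLC3A2 and SLC7A11, the subunits of the cystine transporter, were at 0.21 and 0.23, and SLC38A1 at -0.17. The serine pathway genes PSPH, SHMT2 and PSAT1 were at -0.23, -0.18 and -0.17, and PSPH did not overlap between groups, with 82.5 to 97.1 TPM under Vector and 73.3 to 80.8 TPM under CES2. WARS, the tryptophanyl tRNA synthetase, ranged over 128 to 148 TPM under Vector and 101 to 127 TPM under CES2 (-0.23). XPOT was at -0.14 and CARS at -0.08.

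Stress outputs of ATF4 and CHOP had more members above 0 (13 of 18, median 0.13, against 36.3% of all genes above 0), with SQSTM1, the autophagy receptor p62, at 0.31, JMJD6 at 0.30 and CHAC1, which degrades glutathione, at 0.53. JMJD6 ranged over 44.2 to 50.8 TPM under Vector and 56.2 to 60.9 TPM under CES2, without overlap. The other arms of the unfolded protein response had 12 of 16 above 0 (median 0.16), beside the same 36.3% of all genes. SYVN1, an endoplasmic reticulum ubiquitin ligase, was at 57.0, 49.99 and 66.8 TPM with the empty vector and 39.4, 42.8 and 43.1 TPM with CES2 (log2 fold change -0.45, unadjusted p = 0.0407, adjusted p = 0.9998 by limma). CRELD2 was at 0.33 with groups that did not overlap, and HERPUD1 at 0.42. Over all lists 7 of the 123 genes did not overlap between groups, against 3.70% of all tested genes.

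**Figure D5:**
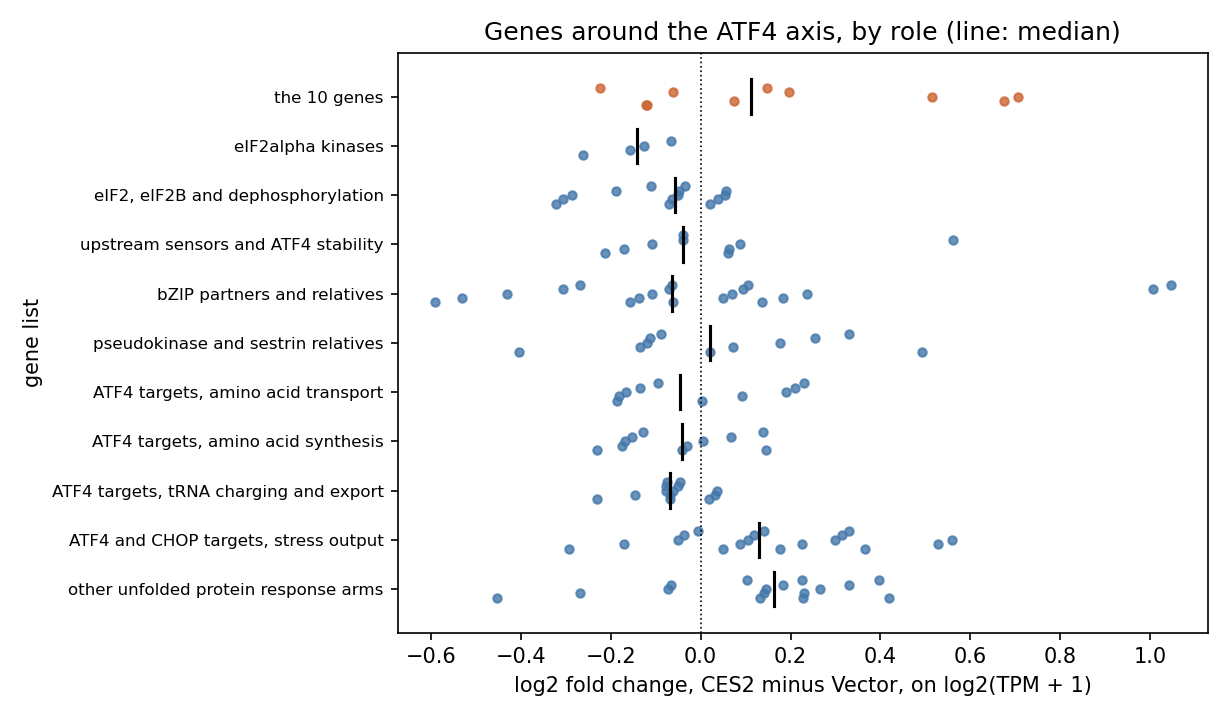
log2 fold changes (CES2 minus Vector) of the 10 genes in orange and of the pathway lists in blue, 1 point per gene and a black line at each median. Medians of the lists lie between -0.14 and 0.16; the points beyond 1 belong to CEBPD and MAFF.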

How the data were processed

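The authors deposited 1 table with a value per gene entry for each of the 6 libraries. The deposited values were taken as TPM because each column summed to between 999804 and 999893. Per the submitters' processing notes, HISAT2 2.1.0, StringTie 1.3.3, edgeR 3.0.8 and the builds hg38 and GRCh38 were used, with no step named for each. For the annotation and the strand setting, the answer is not given in the sources used here. Blank values (607 entries with at least 1, none of them a member) were read as 0. For all 10 members, GENCODE release 29 places the listed transcript at identical coordinates. Values were transformed as log2(TPM + 1) and fitted for the 12210 genes that reached 1 TPM in 3 or more libraries by limma 3.58.1 (R 4.3.3), with group as the only term, an intensity trend and Benjamini-Hochberg adjustment over all of them. The script was tested on simulated data. Single genes were also tested by exact two-sided permutation (scipy 1.17.1, Python 3.11.15). Count models do not apply to TPM.

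Members and lists were chosen with earlier results of these data known. Named genes are CES2, the 10 members, up to 3 tested genes of smallest unadjusted p from each list and the nearest profiles, of which 1 is not reported here. NUP62 and MARS were named because they overlap members. Alternatives covered pseudocounts, filters, scaling, the trend, library weights, blanks, the threshold, the replicate number as a block and each library left out.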

Additional observations from a re-analysis of the deposited data

How the results depend on the processing

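With 3 libraries per group and unknown depth, the members' fold changes had a median standard error of 0.27 (log2), so modest changes could not be seen. In all 16 alternative fits and at an adjusted p threshold of 0.1, 0 of the 10 members passed (lowest adjusted p = 0.719, for CEBPB with library weights). Over all genes 1 passed, except 4 with library weights (CES2, CCL2, CXCL3 and CXCL1), a setting whose weights stopped short of their convergence tolerance. With 1 library left out, 1 to 2 genes passed, the latter without CES2 3. CEBPB, NUPR1 and ATF3 stayed above 0 in all 16 fits, and the other 7 members changed sign in at least 1. With 1 library left out, log2 fold changes ran from -0.25 to 0.01 for ATF4, -0.81 to 0.70 for ATF5, -0.05 to 0.43 for DDIT3, -0.45 to 0.05 for TRIB3, -0.34 to 0.04 for ASNS, -0.14 to 0.09 for PPP1R15A and -0.08 to 0.30 for SESN2. Other sign changes were ATF5 at -0.23 with library weights and PPP1R15A at 0.01 after quantile normalization; the cause was not tested. With the replicate number as a block, 0 members and 1 gene passed. Deviations of same-numbered libraries correlated at 0.145, -0.524 and 0.375 over genes, so the numbers were not taken to pair the samples.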

Other observations

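DDIT4, which encodes the mTORC1 inhibitor REDD1 and is named here after its values were seen, was the most abundant gene of the mixed list that held the sestrin relatives. Its TPM values were 3414, 552 and 1129 for Vector 1 to 3 and 2904, 3448 and 592 for CES2 1 to 3. As for CEBPB, Vector 1, CES2 1 and CES2 2 were high, but CES2 3 was near the lowest library, and the log2 fold change of 0.49 had a standard error of 0.79 (limma, adjusted p = 0.9998). GDF15, a secreted stress cytokine and target of CHOP, also chosen after its values were seen, ran at 86.8, 29.5 and 110 TPM under Vector and 75.3, 101 and 121 TPM under CES2. Only Vector 2 was low, with a log2 fold change of 0.56 ± 0.45 (SE).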
